A study of Mus musculus with 24 samples.

Results

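Among the 5829 cytosines of mouse mitochondrial DNA (mtDNA) listed for this series, 1120 were L-strand cytosines in guanine-rich surroundings. They were chosen by a rule that uses the sequence alone and that was set with earlier results of these data known. A cytosine of the L strand was taken when every 50 nt window that covers its position on the circular genome of 16299 nt held at least 5 H-strand cytosines, which are the guanines of the L strand. The 1120 sites, called G-rich sites here, were 28.8% of the 3890 L-strand cytosines, and 2770 other L-strand cytosines and 1939 H-strand cytosines served for comparison. The G-rich sites lay in 70 stretches with a median length of 52.5 nt and a longest of 388 nt, which together made up 32.1% of mtDNA.

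The strands of mammalian mtDNA differ in base composition, and the L strand, which has the sequence of most mitochondrial messenger RNAs, is rich in cytosine and poor in guanine. Sodium bisulfite deaminates unmethylated cytosine in single-stranded DNA to uracil, whereas 5-methylcytosine reacts far more slowly. The share of reads that still show a cytosine is the unconversion rate. It counts methylated cytosines together with unmethylated ones that escaped the reaction, and double-stranded or folded DNA is known to react poorly. Copies of an H-strand fragment that holds no cytosine can also align to the L strand, where all their cytosines count as unconverted. The number of guanines around an L-strand site is the number of H-strand cytosines there, and the part of such copies in the rates was not tested.

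Unconversion was measured by post-bisulfite adapter tagging, in which randomly primed synthesis adds the adaptors once the bisulfite step is over, in 24 libraries. 10 libraries were made from mtDNA of E14 cells, a mouse embryonic stem cell (ESC) line grown on irradiated STO fibroblasts in 2i-LIF medium, 5 from brain and 5 from liver of C57BL/6J mice, whose age is not given in the sources used here, and 4 from synthetic mtDNA, a PCR product of the C57BL/6J sequence that holds no methylated cytosine. Native mtDNA came from purified mitochondria and was cut once with BglII, and all DNA was mixed with λDNA before treatment. ESC replicates 1 and 2, brain replicate 1, liver replicate 1 and the synthetic DNA were treated for 5, 15, 40 and 60 min, ESC replicate 3 for 60 and 90 min, and brain replicate 2 and liver replicate 2 for 60 min. Each replicate is a separate preparation of mtDNA, and the synthetic DNA is a single preparation. Rates were used at sites with at least 10 covering reads, and a mean rate is a mean over sites.

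To show what the rule selects, the central 150 nt of the 3 stretches with the most G-rich sites and of the 3 stretches without any that hold the most L-strand cytosines are given here as L-strand sequence, 5′ to 3′, in build mm10, with guanines in capitals. The first set lies in COX1 and COX2, which encode subunits of cytochrome c oxidase, and in the control region, which holds the origin of H-strand replication. The second set lies in ND5 and ND2, which encode subunits of NADH dehydrogenase, and in ATP8 and ATP6, which encode subunits of ATP synthase.
G-rich, COX1, chrM:6395-6544: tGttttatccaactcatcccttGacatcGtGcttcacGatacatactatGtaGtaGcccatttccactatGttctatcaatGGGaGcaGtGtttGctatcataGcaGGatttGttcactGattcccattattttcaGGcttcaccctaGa
G-rich, control region, chrM:15811-15960: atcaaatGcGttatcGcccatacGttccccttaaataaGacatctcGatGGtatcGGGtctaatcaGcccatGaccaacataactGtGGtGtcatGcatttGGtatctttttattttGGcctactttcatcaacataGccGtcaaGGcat
G-rich, COX2, chrM:7452-7601: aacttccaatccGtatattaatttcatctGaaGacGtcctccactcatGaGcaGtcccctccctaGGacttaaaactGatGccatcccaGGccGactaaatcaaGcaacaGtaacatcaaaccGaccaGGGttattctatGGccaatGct
without G-rich sites, ND5 and ND6, chrM:13412-13561: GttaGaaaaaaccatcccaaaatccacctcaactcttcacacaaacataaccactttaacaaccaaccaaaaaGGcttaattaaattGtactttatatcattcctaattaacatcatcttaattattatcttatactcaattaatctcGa
without G-rich sites, ND2, chrM:4613-4762: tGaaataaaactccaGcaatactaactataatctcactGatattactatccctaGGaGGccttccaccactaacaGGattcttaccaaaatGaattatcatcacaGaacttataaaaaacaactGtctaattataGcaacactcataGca
without G-rich sites, ATP8 and ATP6, chrM:7934-8083: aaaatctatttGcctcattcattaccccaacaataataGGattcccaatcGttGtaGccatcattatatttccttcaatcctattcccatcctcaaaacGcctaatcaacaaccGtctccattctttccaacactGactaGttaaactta
The printed runs of the first set hold 24, 26 and 23 guanines, and those of the second set 6, 14 and 10. After 60 min, the whole stretches of the first set had mean unconversion rates of 0.90% ± 0.64 in COX1 (SD, n = 8 libraries), 0.81% ± 0.68 in the control region (n = 8) and 0.86% ± 1.64 in COX2 (n = 7). The stretches of the second set had mean rates of 98.8% ± 0.60 around ND5, 90.5% ± 6.48 around ND2 and 92.5% ± 4.06 around ATP8. Synthetic mtDNA showed the same separation, with 0.57, 0.70 and 0.57% in the first set and 97.5, 87.5 and 87.6% in the second. Here and below, the rates appear to include reads with 90% or more of their cytosines unconverted, which the study removed.

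The unconversion rate of L-strand cytosines after 60 min fell steeply as the lowest number of guanines in the covering windows rose. This fall was seen in values that appear to include the reads that the study removed, and it was not measured without them. Sites with a lowest count of 0 had a mean rate of 86.0% ± 2.75 (SD, n = 8 preparations), those with 1 had 73.9% ± 1.37, those with 2 had 47.9% ± 4.81 and those with 3 had 9.91% ± 1.29. Just outside the rule, the 706 sites with a lowest count of 4 averaged 2.60% ± 1.15, and just inside it, the 399 sites with a count of 5 averaged 1.48% ± 0.30. Within the G-rich sites, the mean was 0.89% ± 0.34 at a count of 6, 0.58% ± 0.28 at 7 and 0.33% ± 0.34 at 8. It did not fall further, with 0.82% ± 0.24 at 9 (30 sites), 0.32% ± 0.26 at 10 (31 sites) and 0.84% ± 0.27 at 11 (7 sites, n = 7). The 8 libraries followed each other closely across the counts, as the plot of rate against guanine count shows.

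**Figure D1:**
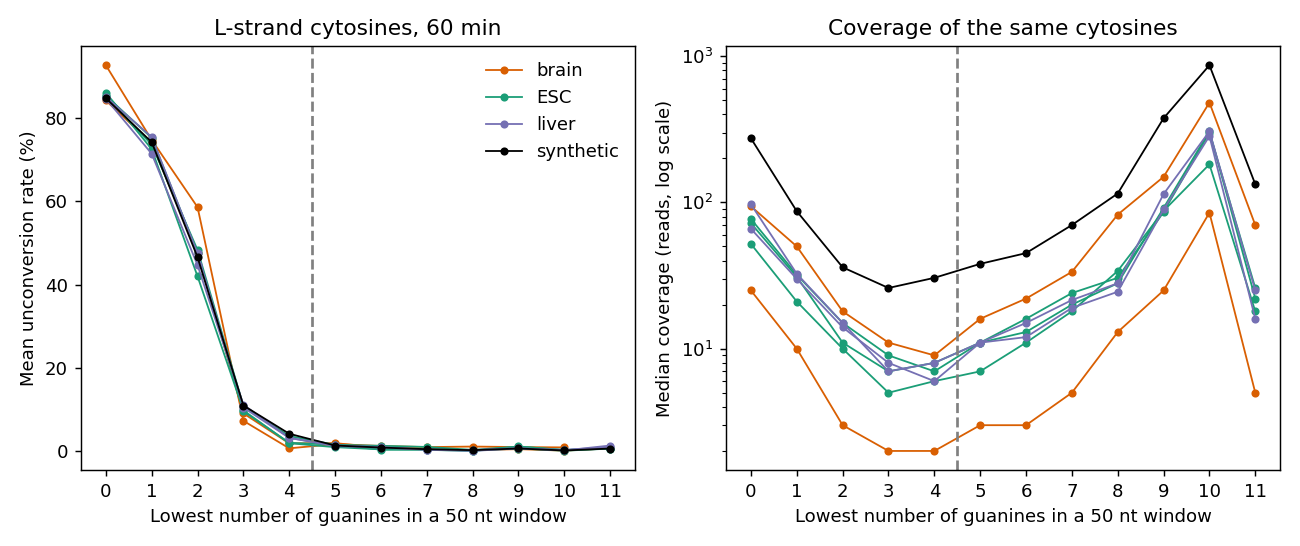
Mean unconversion rate (left, %) and median coverage (right, reads, log scale) of L-strand cytosines in each of the 8 libraries of 60 min, by the lowest number of guanines in a 50 nt window covering the site; G-rich sites are right of the dashed line. The rate falls from 84.2 to 92.7% at a count of 0 to between 0.99 and 1.95% at a count of 5, and coverage is lowest around counts of 3 and 4.

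Coverage moved with the same count. In the median library of 60 min, the median coverage was 74.5 reads at a lowest count of 0, 7.5 reads at 3 and at 4, 11 reads at 5, 20.75 reads at 7 and 90.5 reads at 9. G-rich sites with few guanines were therefore measured with fewer reads than those with many, and the part of coverage in the rates was not tested.

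The transition at the ends of the stretches was short. Within 20 nt outside the end of a stretch, L-strand cytosines had a mean rate of 2.29% ± 0.67 (SD, n = 8 libraries of 60 min). From 21 to 40 nt outside it was 23.2% ± 3.23, and from 101 to 120 nt outside it was 56.3% ± 5.38. G-rich sites within 20 nt inside an end averaged 0.85% ± 0.45, and those 40 to 59 nt inside averaged 1.19% ± 0.33. The rule itself places sites just outside an end next to guanine-rich sequence, so these distances describe the layout of the strand and are not tested.

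**Figure D2:**
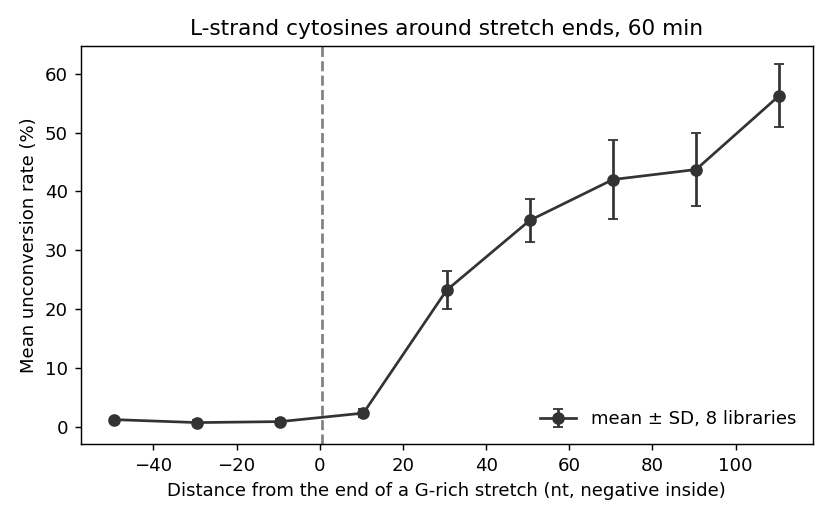
Mean unconversion rate of L-strand cytosines after 60 min (%) by distance from the nearest end of a G-rich stretch (nt, negative inside, dashed line at the end); points are means over 8 libraries and bars are SD. Rates stay between 0.68 and 2.29% up to 20 nt outside and reach 56.3% at 101 to 120 nt.

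After 60 min, every library had a low mean rate at the G-rich sites. The mean was 0.59, 0.72 and 1.17% in ESC replicates 1, 2 and 3. Brain replicates 1 and 2 had 1.04 and 1.22%, liver replicates 1 and 2 had 0.76 and 0.88%, and synthetic mtDNA had 0.88%. Brain replicate 2, the highest, was also the least covered library, with 351 G-rich sites in use against 630 to 793 in the other native libraries and 963 in synthetic mtDNA. The synthetic value lay within the range of the native ones, and the ESC values spanned those of liver and overlapped those of brain.

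The median G-rich site had a rate of 0 in each of these libraries, and 63.4 to 83.2% of the covered sites showed no unconverted read. No G-rich site with at least 10 reads reached 50% in any of the 14 libraries treated for 40 min or longer. Of the G-rich sites, 148 had that coverage in no library of 60 min. Pooled over sites, 0.495% of the calls in synthetic mtDNA were unconverted (95% Wilson interval, 0.461 to 0.531%), and 0.435% (0.378 to 0.501%) in ESC replicate 2, the lowest native library. Intervals cover counting error only and treat the calls of a read as independent. At the median coverage of the covered sites, 3 unconverted reads correspond to a rate of 4.35% in synthetic mtDNA and 11.1% in brain replicate 2, so a lower rate was not detectable at a site of that coverage in those libraries. Of 700 G-rich sites with at least 100 reads summed over the 8 libraries, 167 had no unconverted read, 572 had a rate under 1% and 10 had 5% or more.

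In these libraries, mean rates of the other L-strand cytosines lay between 42.1 and 57.9%. G-rich sites were lower by a mean of 44.7 percentage points, with 8 of 8 preparations in that direction (exact sign-flip permutation test, two-sided, p = 0.00781, the smallest that 8 preparations allow). The values of the other L-strand cytosines appear to include reads with 90% or more of their cytosines unconverted, which the study removed. After removing them, the study reported nearly complete conversion of the whole L strand at this duration, in native and synthetic mtDNA. The difference between G-rich and other L-strand sites without those reads was not measured here. The p-value was 0.0172 after Benjamini-Hochberg adjustment over the 13 tests of mean rates made here. It describes only how the difference recurred over preparations of the same sequence. The rule for the sites was chosen with earlier results of these data known.

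Compared with the H strand, the G-rich sites had a slightly higher mean rate after 60 min. The mean was 0.91% against 0.59%, a difference of 0.32 ± 0.16 percentage points (SD, n = 8), and it was positive in 8 of 8 preparations (exact sign-flip permutation test, p = 0.00781, adjusted p = 0.0172). This difference depended on a few sites. Without 7 neighbouring G-rich sites in TrnH, described next, it was 0.13 percentage points and positive in 5 of 8 preparations (exact p = 0.109). Over only those sites covered in all 8 libraries it was -0.059 percentage points (exact p = 0.508). Against the 1107 H-strand cytosines inside the same stretches it was 0.29 ± 0.18 percentage points, positive in 7 of 8 preparations (exact p = 0.0156, and 0.0625 after adjustment over the 4 durations).

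Among the 700 G-rich sites with at least 100 summed reads after 60 min, the highest rates were those of 7 neighbours near the 3′ end of TrnH, the gene for the histidine tRNA of mitochondria. They were singled out after their values had been seen. All 7 lie within 14 nt, at nt 11599 to 11612, and each has a lowest count of 5 guanines. Their surroundings are shown from the first G-rich site of this gene, with the 7 cytosines in capitals.
TrnH, chrM:11559-11612, L strand, mm10: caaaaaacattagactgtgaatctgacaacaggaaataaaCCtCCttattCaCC
The mean rate of the 7 sites was 17.2, 29.3 and 18.4% in ESC replicates 1, 2 and 3. It was 35.8% in brain replicate 1, 20.5 and 10% in liver replicates 1 and 2, and 30.5% in synthetic mtDNA, while brain replicate 2 had 5 reads there and gave no value. Synthetic mtDNA lay inside the native range. Within a library the 7 sites were nearly alike, at 10% each in liver replicate 2, 30 to 30.8% in synthetic mtDNA and 26.3 to 31.6% in ESC replicate 2. The other 6 G-rich sites of the gene, at nt 11559 to 11588, averaged 0.69% over 7 libraries and 0 in synthetic mtDNA. These values rest on 19 to 51 reads per site and library.

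The 7 sites did not follow the other G-rich sites over time. Over 5 preparations, 5 min of treatment left a mean rate of 36.9% ± 1.71, 15 min left 14.2% ± 7.02 and 40 min left 15.95% ± 6.33, and over 7 preparations 60 min left 23.1% ± 9.03 (SD). In synthetic mtDNA the values were 38.7, 4.93, 6.61 and 30.5%. The remaining G-rich sites had means of 37.3% ± 0.88, 3.58% ± 2.51, 0.62% ± 0.16 and 0.72% ± 0.28 (n = 5, 5, 5 and 8). The 7 sites share reads, so they count as a single locus and not as 7 replicates.

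**Figure D3:**
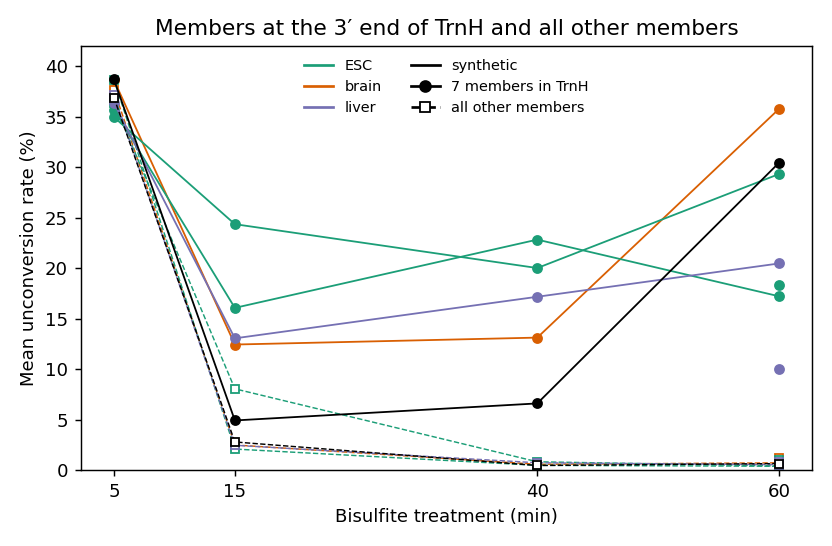
Mean unconversion rate (%) of the 7 G-rich sites at the 3′ end of TrnH (filled circles, solid lines) and of all other G-rich sites (open squares, dashed lines) by duration of bisulfite treatment (min); each line is a preparation, coloured by series, and single symbols at 60 min are preparations without a time course. After 60 min the 7 sites range from 10 to 35.8% and the others from 0.40 to 1.22%.

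322 G-rich sites were covered in all 8 libraries of 60 min, and 4 of those with high mean rates are named here. Each is followed by adenine. The 2 in COX1 are shown with their neighbours on each side, the site itself in capitals.
nt 5752, COX1: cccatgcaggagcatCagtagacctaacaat
nt 5443, COX1: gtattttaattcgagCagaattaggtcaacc
Site nt 5752 in COX1 averaged 4.38% ± 1.73 after 60 min, with 2.2 to 7.6% in native libraries and 3.7% in synthetic mtDNA. Site nt 5443, also in COX1, averaged 2.60% ± 1.24, with 1.5 to 5.3% in native libraries and 1.6% in synthetic mtDNA. The other two, nt 733 and nt 724 in mt-Rnr1, the 12S ribosomal RNA gene, averaged 3.81% ± 6.04 and 2.96% ± 3.37. In brain replicate 2, 11 reads covered each of them and the rates were 18.2 and 9.1%, each from fewer than 3 unconverted reads. The other native libraries had 0 to 4.3% at nt 733 and 0 to 7.1% at nt 724. In synthetic mtDNA both had a rate of 0.6%, at 175 and 165 reads.

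Native and synthetic mtDNA were compared to ask whether native G-rich sites hold unconverted cytosines beyond those of a DNA without methylation. The native mean after 60 min was 0.91% ± 0.24 (SD, n = 7) and the synthetic value 0.88%, which differ by 0.036 percentage points, and 4 of 7 native preparations had the higher mean (exact permutation test, p = 0.875, smallest possible p = 0.125). The difference took the opposite sign at a coverage minimum of 20, where it was -0.12 percentage points. After 40 min the native mean was 0.82% ± 0.17 (SD, n = 4) and the synthetic value 0.52%, which all 4 native preparations exceeded (exact permutation test, p = 0.4, smallest possible 0.2).

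At single sites, 680 G-rich sites could be compared, since synthetic mtDNA and some preparation of ESCs, of brain and of liver covered them. In reads summed over native preparations, 0 of the 680 differed from synthetic mtDNA at an adjusted p under 0.05 (Fisher's exact test with adjustment over all 4129 sites tested), where 1.02% of all sites tested did. At an unadjusted p under 0.05 there were 16 of the 680, and the share over all sites was not computed. limma was also fitted to the sites covered in all 8 libraries, 322 of them G-rich. The synthetic group has 1 library, which limma assumes to vary like the native ones, so this fit cannot decide whether single sites differ. At an unadjusted p under 0.05 limma gave 53 of the 322, 16.5%, where all sites tested gave 267 of 2902, 9.2%. Of these 53, 51 were higher in native and 2 in synthetic mtDNA on the logit scale, where the offset places a site without unconverted reads higher the fewer reads cover it, and the median coverage of these 322 sites was 232.5 reads in synthetic mtDNA and 28 to 148 reads in native libraries. The part of coverage in this count was not tested. Of the 42 sites called in all, 40 were other L-strand cytosines, out of 1576 tested, and 2 were H-strand cytosines, out of 1873. A G-rich site had a median of 269 native and 128.5 synthetic reads in this test. Differences at G-rich sites ranged from -10.4 to 7.11 percentage points, 278 sites were higher in native and 228 in synthetic mtDNA, and 174 had no unconverted read in either.

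**Figure D4:**
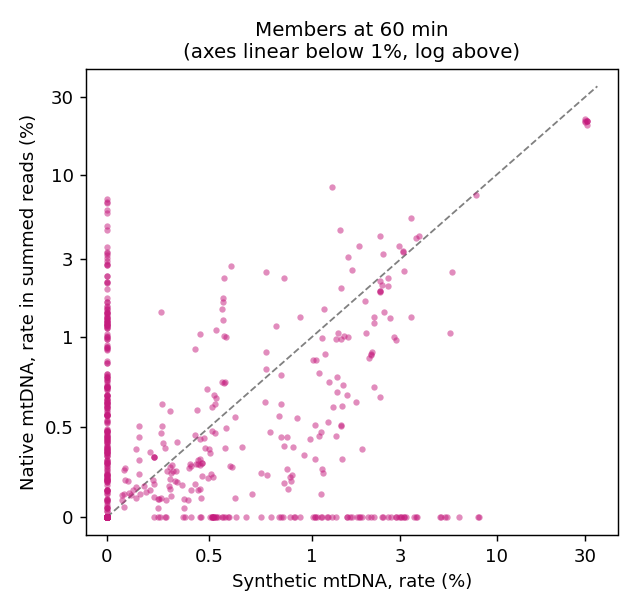
Unconversion rate of 680 G-rich sites after 60 min in reads summed over native preparations (vertical, %) against synthetic mtDNA (horizontal, %); each point is a site, axes are linear below 1% and logarithmic above, and the dashed line marks equal rates. The group near 30% on the horizontal axis is the 7 sites of TrnH.

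ESC and tissue mtDNA overlapped at the G-rich sites. ESCs averaged 0.83% ± 0.31 (SD, n = 3) and brain and liver together 0.97% ± 0.20 (SD, n = 4), a difference of -0.15 percentage points (exact permutation test, p = 0.4, smallest possible 0.0286), and the groups overlapped. Among sites covered in all 7 native libraries, 0 of 322 G-rich sites were called by limma at an adjusted p under 0.05, where 0.0% of all 2902 sites tested were. At an unadjusted p under 0.05 limma gave 6 G-rich sites, 1.86%, where all sites tested gave 120, 4.14%. Fisher's exact test on summed reads gave 5 at an unadjusted p under 0.05, and the share over all sites was not computed. At an adjusted p under 0.05 it gave 0 G-rich sites and 0 of all 2902 sites tested.

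The time course shows how the G-rich sites approached these levels. After 5 min, the mean rate was 36.4 and 38.6% in ESC replicates 1 and 2, 37.7 and 37.1% in the brain and liver libraries, and 36.9% in the synthetic one. After 15 min it was 8.13% in ESC replicate 1 and 2.30% in ESC replicate 2, with 2.58 and 2.56% for brain and liver and 2.82% for the synthetic DNA. ESC replicate 1 stood apart from the others at this duration, and its H-strand mean of 10.6% did so as well. After 40 min the values were 1.02, 0.66, 0.71, 0.89 and 0.52%, in the same order.

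From 5 to 15 min the mean fell by 33.7 percentage points, in 5 of 5 preparations (exact permutation test, p = 0.00794, adjusted p = 0.0172). From 15 to 40 min it fell by 2.92 percentage points, again in 5 of 5 (exact permutation test, p = 0.00794), and by 1.87 without ESC replicate 1. The durations come from the same preparations, and with the preparation as a block both p-values were 0.0625, the smallest that 5 pairs allow. From 40 to 60 min the difference was 0.035 percentage points (exact permutation test, p = 0.762), and its sign changed under several alternatives. ESC replicate 3, the only preparation treated for 90 min, had a mean of 1.36% at 324 G-rich sites after 90 min and 0.66% at the same sites after 60 min, without replicates. H-strand sites of the same pair of libraries averaged 1.39 and 0.64%.

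The order of the strands changed with time. After 5 min, G-rich sites were above the H strand by 5.67 ± 1.19 percentage points in 5 of 5 preparations, and after 15 min they were below it by a mean difference of -1.22 ± 0.73 in 5 of 5 (SD; exact sign-flip permutation test, p = 0.0625 for each, the smallest possible). H-strand cytosines of the same stretches gave 5.04 percentage points after 5 min and -0.94 after 15 min, with the same counts of preparations. When reads were pooled over sites, the difference after 5 min was -0.42 percentage points, a setting that weights each site by its coverage.

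**Figure D5:**
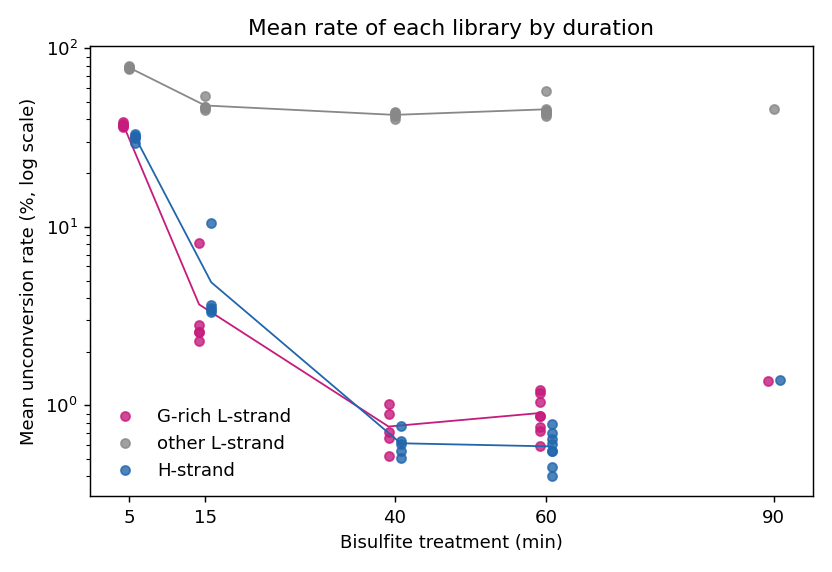
Mean unconversion rate of each library (%, log scale) by duration of bisulfite treatment (min) for G-rich L-strand, other L-strand and H-strand cytosines; points are libraries, shifted sideways by class, and lines join the means of 5, 5, 5 and 8 libraries. G-rich sites and the H strand fall from over 29% to at most 1.22% between 5 and 60 min, while other L-strand sites stay above 40%.

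After 5 min the G-rich sites still differed widely from one another, and the differences recurred between libraries. Over the 837 G-rich sites covered in all 5 libraries, Pearson's r between pairs of libraries was 0.71 to 0.81 after 5 min. Over 322 sites and 28 pairs of libraries of 60 min it was 0.09 to 0.58. These are correlations across sites of the same sequence, which are not independent replicates. By lowest count, the mean after 5 min was 43.2% ± 0.96 at 5 guanines, 36.4% ± 1.88 at 6, 35.3% ± 0.69 at 7 and 28.9% ± 1.36 at 8 (SD, n = 5), against 93.3% ± 1.37 at 0. At 9, 10 and 11 guanines it was 30.3% ± 0.96, 28.3% ± 0.60 and 32.04% ± 4.69.

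The 5 sites with the highest and the 5 with the lowest mean after 5 min mark the ends of this range. The highest were nt 11042, nt 11045 and nt 11050 in ND4 and nt 4259 and nt 4260 in ND2, and the lowest included nt 873 in mt-Rnr1 and nt 14645 in CYTB, the cytochrome b gene.
nt 11042, ND4: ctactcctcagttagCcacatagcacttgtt
nt 4259, ND2: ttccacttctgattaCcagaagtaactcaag
nt 873, mt-Rnr1: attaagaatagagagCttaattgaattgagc
nt 14645, CYTB: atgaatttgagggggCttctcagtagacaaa
At nt 11042 the rate was 97.3% in brain and 100% in the other 4 libraries, on 27 to 45 reads. At nt 4259 it was 94.3% in brain and 100% in the others, on 11 to 35 reads. Neither site had coverage of 10 in any library of 60 min, so whether they were converted later is not known. At nt 873 the rate was 6.9% in both ESC replicates, 8.7 and 6.3% in the brain and liver libraries and 8.7% for the synthetic DNA, on 188 to 470 reads. At nt 14645 it ranged from 4.4 to 11.9%. The remaining low sites, nt 3395 in ND1, nt 5196 in TrnC and nt 7602 in COX2, averaged 7.14, 8.50 and 8.68%. All 5 sites of the high group have a lowest count of 5 guanines, whereas those of the low group have 6 to 9.

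Sites without coverage in the later libraries had higher rates after 5 min. In all, 148 G-rich sites had coverage of 10 in no library of 60 min, and their mean rate after 5 min was 64.2% ± 2.98 (SD, n = 5). The 972 sites covered in at least 1 library of 60 min averaged 34.96% ± 0.80 after 5 min. A lowest count of 5 was held by 54.1% of the former and 32.8% of the latter. Of the 148 sites, 61 to 96 had coverage of 10 in a given library of 5 min, and of the 972 at most 908 did, so both means cover only those. The means after 60 min therefore describe 972 of the 1120 G-rich sites, and the level of the other 148 after 60 min was not measured.

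After 5 min, G-rich sites in short stretches had higher rates than those in long ones. The 189 G-rich sites in stretches under 50 nt averaged 44.3% ± 1.99, and the 371 sites in stretches of 200 nt or more averaged 33.4% ± 0.69 (SD, n = 5). After 60 min the same groups had 0.93% ± 0.37 and 0.75% ± 0.38 (n = 8). Among the 50 stretches that hold at least 5 G-rich sites and have a value after 5 min, the mean ranged from 15.3% in a stretch of 20 nt in CYTB at nt 14244 to 14263 to 98.8% in the stretch of 32 nt in ND2 that holds nt 4259.

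Of the G-rich sites, 141 were CG sites, 12.6%, compared with 4.91% of other L-strand and 19.4% of H-strand cytosines. CG is the context of most, but not all, methylated cytosines of mammalian nuclear DNA. After 60 min the CG sites averaged 0.56% and the 979 sites in other contexts (CH) 0.96%, a difference of -0.40 ± 0.062 percentage points with CG lower in 8 of 8 preparations (exact sign-flip permutation test, p = 0.00781, adjusted p = 0.0172). Without the 7 sites in TrnH, all of them CH, the difference was -0.19 percentage points (exact p = 0.00781). It was -0.095 over sites covered in all 8 libraries (exact p = 0.0234) and -1.89 with 100 nt windows (exact p = 0.00781). Split by lowest count, CG sites were lower in 7 of 8 preparations at 5 guanines, in 5 of 8 at 6 and in 6 of 8 at 7 or more, with mean differences of -0.77, 0.0085 and -0.21 percentage points. In synthetic mtDNA the direction was that of the native libraries.

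By the next base, G-rich sites followed by adenine had the highest mean at each duration examined. After 5 min they averaged 42.1% ± 1.20 (SD, n = 5), compared with 36.9% ± 0.92 before cytosine, 33.8% ± 0.61 before guanine and 33.8% ± 0.95 before thymine. After 15 min the means were 4.53, 3.24, 3.52 and 3.16%, and after 60 min 1.06, 0.98, 0.56 and 0.82% (n = 8). H-strand cytosines of the same stretches also had their highest mean before adenine after 5 min, 36.7% ± 1.01, and after 15 min, 6.36% against 4.53% for the G-rich sites. After 40 and 60 min their highest mean was before thymine, 0.86 and 0.71%, with 0.70 and 0.68% before adenine.

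Within the G-rich sites, those at the rule's limit had the higher rates after 60 min. Sites with a lowest count of 5 exceeded those with 7 or more by 0.96 ± 0.31 percentage points in 8 of 8 preparations (exact sign-flip permutation test, p = 0.00781), a comparison added after the values had been seen. Without the 7 sites of TrnH it was 0.36 percentage points (exact p = 0.00781), and over sites covered in all 8 libraries it was 0.029 percentage points (exact p = 0.914).

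The G-rich sites were spread unevenly over the genes. COX1 held 239 of them, 65.1% of its L-strand cytosines, followed by mt-Rnr2 with 108, ND5 with 89, mt-Rnr1 with 87, COX3 with 77, the control region with 75 and COX2 with 74. ND1, ND4 and CYTB held 69, 62 and 58, ATP6 21, ND4L 14, ND2 9, ND3 5, ND6 3 and ATP8 none. The tRNA genes together held 127, 52.9% of their L-strand cytosines.

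Mean rates by gene after 60 min were as follows. In COX1, G-rich sites averaged 0.78% ± 0.37 and the other L-strand cytosines of the gene 6.11% ± 2.15 (SD, n = 8). In ND5 the values were 1.32% ± 0.997 and 61.6% ± 7.70, in ND1 0.26% ± 0.24 and 42.4% ± 3.19, and in the control region 0.81% ± 0.68 and 27.9% ± 11.9. The ribosomal RNA genes had 1.14% ± 1.22 in mt-Rnr1 and 0.49% ± 0.23 in mt-Rnr2. The tRNA genes, pooled, had 2.16% ± 1.11 with the 7 TrnH sites included, and their mean without these sites was not computed. The stretch that holds the 7 TrnH sites, nt 11545 to 11706, averaged 12.7% ± 5.27 (SD, n = 7). It holds 27 G-rich sites and also overlaps TrnS2 and TrnL2. Only TrnH sites, the 7 and 6 others, had the coverage to enter this mean, so it gives no rate for TrnS2 or TrnL2. In ND4, which had no covered G-rich site in 1 library, the mean was 0.30% ± 0.47 (n = 7), against 75.05% ± 6.79 at its other L-strand cytosines.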

How the data were processed

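Cytosine conversion was measured in 24 libraries. The authors trimmed the first reads (Trim Galore), aligned these with Bismark against the mtDNA of mm10 and read off, strand by strand, which cytosines were converted. They deposited, for each cytosine, the percent of reads in which it was unconverted, uncorrected and to 1 decimal, and the coverage, a count of reads without normalization. The study dropped reads in which 90% or more of the cytosines were unconverted. That step works on single reads and was not repeated here, and the rates of 90% or more at many other L-strand sites point to values from before it.

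Unconverted reads were taken as percent times coverage, rounded. Sites needed 10 reads. A library held 257028 to 2260572 calls, and 3 unconverted reads were the smallest number taken to show a rate. All listed positions were cytosines of their strand in the RefSeq mtDNA sequence of GRCm38, which gave the printed sequences and genes. 160 reference cytosines without a listed value were not analysed here, and windows over them count fewer guanines.

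Preparations were compared with exact two-sided sign-flip or permutation tests. Sites were compared with Fisher's exact test (scipy 1.17.1) or with limma 3.58.1 (R 4.3.3) on the empirical logit with an offset of 0.5. The p-values of sites were adjusted by Benjamini-Hochberg over all sites tested. Scripts were tested on simulated data. The 4 durations of a preparation share its mtDNA, as the study's sample list states, which pairs them. Deviations of single G-rich sites from their mean at 5 and at 15 min correlated within a preparation at -0.033 to 0.16. The highest correlation with another preparation was 0.019 to 0.10. It exceeded the value within the preparation for ESC replicate 2, liver replicate 1 and the synthetic DNA, so this check does not show the pairing. No pair of libraries had identical coverage.

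The rule for the sites, the lists and the tests were chosen with earlier results of these data known. Named are the 5 sites with the highest mean over the 8 libraries of 60 min, where each library covered them, the 5 highest and 5 lowest that every library of 5 min covered, and sites called between native and synthetic mtDNA. 1 site that this rule names is not reported here. The 3 stretches with the most G-rich sites and the 3 of at least 50 nt without any and with the most L-strand cytosines are printed. Alternatives were other coverage minimums, thresholds and windows, pooled reads, shared sites, sites of 50% or more left out, a replicate block, each preparation left out and, added after the values were seen, guanines of the reference and 7 TrnH sites left out.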

Additional observations from a re-analysis of the deposited data

Results flagged for a closer look

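20 groups of 4 or 7 native libraries were examined for a value far from the others, and 6 were flagged, where chance flags about 1 in 20. After 15 min, ESC replicate 1 had a mean of 8.13% at the G-rich sites, and the next value was 2.58%. After 40 min, the same replicate had a median coverage of 33 reads over the G-rich sites, and the next was 20 reads. After 60 min, brain replicate 2 covered 351 G-rich sites, and the next library covered 630. Its G-rich sites were also farthest from the other L-strand sites, by -56.7 percentage points against -44.8 in the next library. Its rate of 18.2% at nt 733 was far above the next, 4.3%, but rests on 11 reads and fewer than 3 unconverted ones. At nt 5443, ESC replicate 2 had 5.3%, and the next was 3.1%.

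The difference between G-rich sites and the H strand moved with duration. From 5 to 15 min it moved by -6.89 ± 0.70 percentage points (SD, n = 5), from positive in 5 of 5 preparations to negative in 5 of 5. From 15 to 60 min it moved by 1.47 ± 0.71 percentage points, and it was then positive in 5 of 5 preparations, but in 2 of 5 without the 7 TrnH sites. For both changes an exact sign-flip permutation test gave p = 0.0625, the smallest that 5 preparations allow.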

How the results depend on the processing

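Of 219 recomputed values, 197 kept their direction and side of the threshold. For native minus synthetic, and for G-rich sites minus the H strand after 5, 15 and 40 min, the side could not change. There the smallest possible p was 0.0625 or more. The 197 also include counts of sites called, which have no direction. G-rich sites minus the H strand after 60 min was 0.86 with at least 4 guanines and 1.89 with 100 nt windows, and became 0.073 (exact p = 0.32) with at least 6 guanines, -0.059 with only shared sites and 0.13 (exact p = 0.109) without the TrnH sites. After 5 min it was -0.42 with reads pooled, after 15 min 0.27 with at least 4 guanines and 0.50 with 100 nt windows, and after 40 min -0.12 with at least 6 guanines. Native minus synthetic after 60 min was -0.12 and -0.15 at coverage minimums of 20 and 30, -0.54 with at least 4 guanines, and -0.016 to 0.090 when 1 preparation was left out. The change from 40 to 60 min was -0.014 at a minimum of 30, -0.044 with reads pooled, -0.31 with at least 4 guanines, -0.38 with 100 nt windows, -0.071 without the TrnH sites and -0.044 to 0.15 when 1 preparation was left out. With the replicate block, the changes of -2.92 and -33.7 kept their size at an exact p of 0.0625, and no other call changed. ESC, brain and liver share only replicate numbers. Lowest count of 5 against 7 or more was 0.029 with only shared sites. All are percentage points, and the cause of each was not tested. Depth limits single sites, where 3 reads are 4.35 to 11.1% after 60 min.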
